A study of Mus musculus with 6 samples.

Results

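The 10 genes described here encode transcription factors of B-lineage identity and of the step from pro-B to small pre-B cells: Pax5, Ebf1, Tcf3, Foxo1, Ikzf1, Ikzf3, Pou2f2, Pou2af1, Lef1 and Sox4. They were chosen by name, with earlier results of these data known, each through its brightest probe with exactly 1 gene symbol. All 10 were measured, of 19938 genes in all, and each had 1 such probe. RNA came from pre-B cells transformed by BCR-ABL1, the oncogenic kinase of Ph+ acute lymphoblastic leukemia (ALL), and the cells of both groups carry the same labels: Balb/c strain, age of 4 weeks and Blnk KO genotype. The control group (3 samples) was transduced with pMIG, a retroviral vector that marks cells with GFP, and the other group (3 samples) with Blnk (Slp65), and GFP-positive cells were sorted 5 days later. The comparison asks how returning Blnk, an adaptor through which the pre-B cell receptor signals, changes the transcripts of these factors. Both groups lack the cell's own Blnk by label and both carry BCR-ABL1, so neither stands for a normal pre-B cell. No label says that replicates are separate cultures or animals, so p-values rest on a spread between arrays that may be technical.

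B-cell identity rests on a network in which E2A (encoded by Tcf3), EBF1 and FOXO1 switch on early B-lineage genes and PAX5 then holds the cells to that fate. Ikaros (Ikzf1) and Aiolos (Ikzf3) are related zinc-finger proteins that act as the pre-B cell receptor ends the proliferating large pre-B stage and small pre-B cells form. OCT2 (Pou2f2) and its coactivator OBF1 (Pou2af1) act through the octamer element, while LEF1 and SOX4 are HMG-box factors of early B-cell progenitors.

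The promoters of Pou2f2 and Lef1 are shown because these were the factors with the largest rise and the largest fall, and that of Foxo1 because it was the one promoter of the 9 read that held an EBF1 site. They come from RefSeq (GRCm38.p6), which gave an entry for 9 of the 10 genes. The entry for Ikzf3 is missing. Each run holds the 250 bases before the most upstream start listed, 5′ to 3′ on the gene's strand. Capitals mark any match, on either strand, to 6 short motifs bound by the listed factors.
Pou2f2: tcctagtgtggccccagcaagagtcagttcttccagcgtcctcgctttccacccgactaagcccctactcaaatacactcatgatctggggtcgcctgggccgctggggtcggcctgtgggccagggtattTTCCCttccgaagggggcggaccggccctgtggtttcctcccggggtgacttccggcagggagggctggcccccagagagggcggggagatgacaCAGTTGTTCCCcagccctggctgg
Lef1: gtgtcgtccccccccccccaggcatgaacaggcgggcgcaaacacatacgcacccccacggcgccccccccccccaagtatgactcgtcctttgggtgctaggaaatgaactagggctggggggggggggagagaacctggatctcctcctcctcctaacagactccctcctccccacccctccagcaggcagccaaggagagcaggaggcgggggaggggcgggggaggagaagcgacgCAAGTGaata
Foxo1: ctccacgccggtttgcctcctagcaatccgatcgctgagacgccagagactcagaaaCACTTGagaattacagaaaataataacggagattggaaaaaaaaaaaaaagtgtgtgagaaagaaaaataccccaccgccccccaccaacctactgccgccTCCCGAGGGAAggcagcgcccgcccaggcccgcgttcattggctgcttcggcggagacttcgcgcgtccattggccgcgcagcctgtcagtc
The Pou2f2 run is chr7:25132461-25132710 on the minus strand, the Lef1 run chr3:131110047-131110296 on the plus strand and the Foxo1 run chr3:52268087-52268336 on the plus strand. The annotated Pou2f2 gene reaches further upstream than this start. The motifs searched were the octamer ATGCAAAT, the E-box CANNTG bound by E2A, the EBF1 palindrome (TCCC and GGGA with 2 bases of any kind between them), the forkhead site GTAAACA, the LEF1 site CTTTGA and the Ikaros core GGGAA, and the Ikaros core can overlap an EBF1 site. The Pou2f2 run held 1 E-box and 2 Ikaros cores, and the Lef1 run held 1 E-box. In the Foxo1 run the EBF1 site TCCCGAGGGA began 92 bases before the start, and an Ikaros core overlapped it. Of 32851 promoter windows of this length, 0.779% held an EBF1 site, 66.2% an E-box and 56.2% an Ikaros core. These windows include every listed start of a gene, while each factor was read at its most upstream start only. The other starts of Lef1 (4 listed) and of Ebf1 and Ikzf1 (2 each) were not read. Among the 9 factors with an entry, 1 had an EBF1 site, 7 an E-box and 6 an Ikaros core, and 0 had an octamer (1.6% of all windows), a forkhead site (3.17%) or the LEF1 letters (13.8%). These matches describe letters in a short window and do not show binding.

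The transduced gene itself checked the labels. Its intensity was 970 ± 43.5 on the pMIG arrays and 3026 ± 314 on the Blnk arrays (SD, n = 3 each). The pMIG level is far above the array medians, and whether the probe reads the knocked-out part of the gene is not known here. The median intensity was 67.0 to 70.0 on the 6 arrays, and all 10 factors were above it. The summed intensity of 11 measured B-lineage markers was 36664 to 38258 on the pMIG arrays and 40568 to 41684 on the Blnk arrays, and 2 of the 11 rose and 1 fell. Igll1, a surrogate light chain, was the brightest of them (10485 ± 350 with pMIG, SD, n = 3), while 2 of the 11 were on average below the array medians: Dntt, the terminal transferase (24.3 with pMIG and 24.0 with Blnk), and Rag1, a recombinase subunit (29.7 and 31.3). Sums were 682 to 779 and 711 to 791 for 12 markers of T and NK cells, and 401 to 433 and 408 to 445 for 12 myeloid markers. They were 329 to 384 and 332 to 376 for 7 markers of erythroid cells and megakaryocytes, and 515 to 655 and 538 to 616 for 10 stromal and endothelial markers. No intensity is 0 on these arrays, and 8, 12, 5 and 7 markers of these 4 lists were on average below the array medians. Limma called 0 markers of the 4 lists, and at an unadjusted p under 0.05 it called 0, 0, 0 and 1. In RNA from pooled cells, fewer cells of a type and less RNA per cell cannot be told apart.

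Of the 10 factors, 2 rose with Blnk, 1 fell and 7 did not pass the threshold (limma, Benjamini-Hochberg adjusted p under 0.05). Pou2f2 and Ikzf3 rose, and Lef1 fell. Of all genes, 3.61% were called (2.51% higher and 1.10% lower). Called genes were more frequent among bright genes: of 8531 genes with a mean log2 intensity of 7 or more, a class that holds all 10 factors, 6.85% were called. The median log2 difference, Blnk minus pMIG, was -0.03 over the 10 factors and 0 over all genes. Repeated quantile normalization moved the differences of all genes by a median of -0.037 and centring of the arrays by -0.035, and the median over the 10 factors was then -0.083 and -0.061. The 3 values of 1 group did not overlap those of the other for 8 of the 10 factors, against 20.0% of all genes. At an unadjusted p under 0.05 there were 6 of the 10, against 15.2% of all genes. Both shares were taken over all genes, dim ones included, and not among the bright genes alone. The median size of the log2 difference, in either direction, was 0.25 over the 10 factors and 0.10 over the 8531 bright genes.

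**Figure D1:**
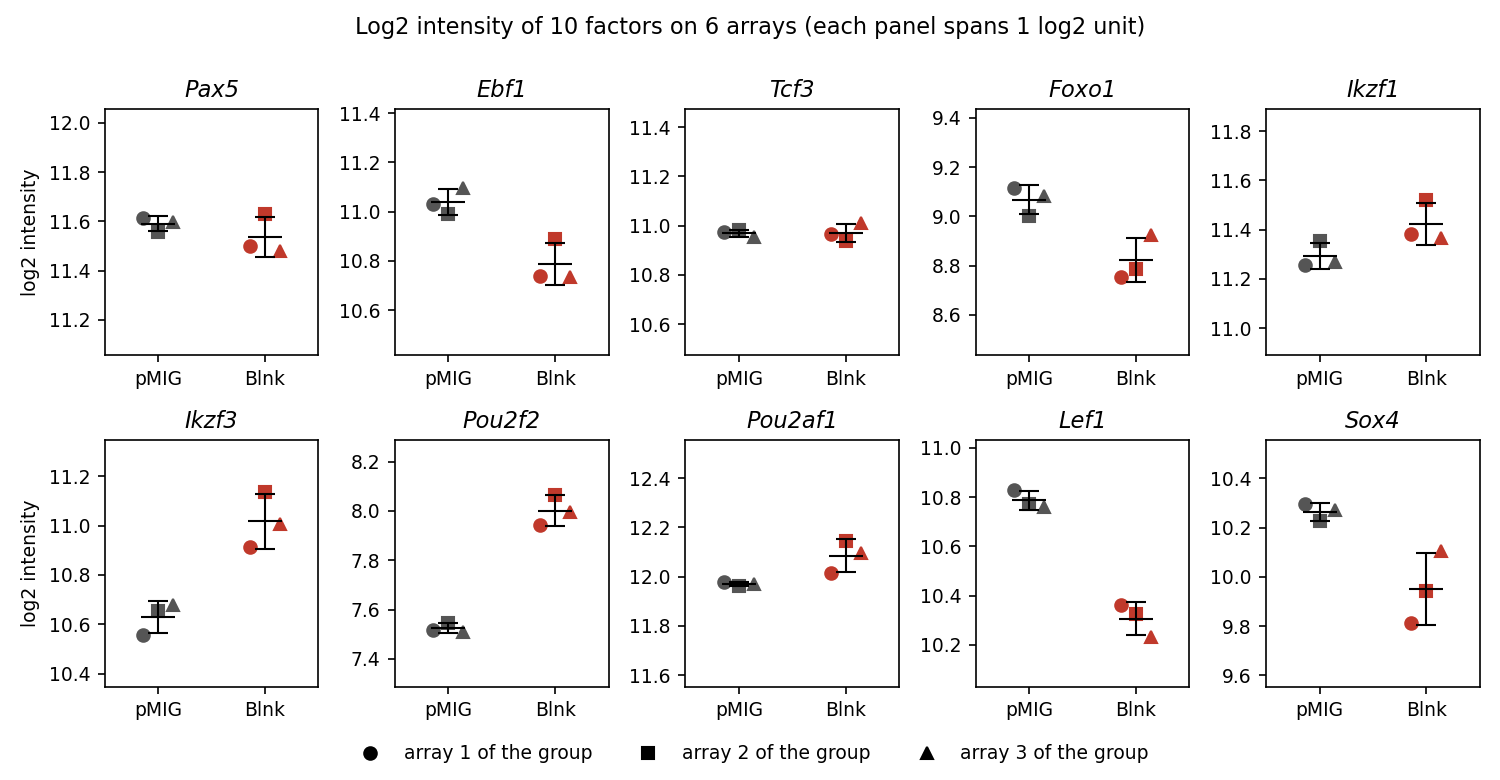
Log2 intensity (vertical axis, each panel 1 log2 unit high) of the 10 factors on the 3 pMIG arrays (grey) and the 3 Blnk arrays (red), with the mean as a long bar and the SD as whiskers; the symbol gives the array's replicate number. Groups are far apart for Pou2f2, Ikzf3 and Lef1 and overlap for Pax5 and Tcf3.

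Among the factors that commit cells to the B lineage, Pax5 was bright and little different between the groups. Pax5, which holds B cells to their identity, had intensities of 3138, 3014 and 3101 on the pMIG arrays and 2894, 3171 and 2859 on the Blnk arrays. Blnk array 2 was above every pMIG array and the other Blnk arrays were below them, so the groups interleave. The log2 difference was -0.05 (95% interval -0.22 to 0.11, adjusted p = 0.803), which bounds the fold between 0.860 and 1.08. Tcf3, whose products E12 and E47 drive early B-lineage genes, had 2011, 2020 and 1983 with pMIG and 2000, 1959 and 2062 with Blnk. These values overlap. Its log2 difference was 0.00 (95% interval -0.15 to 0.15, fold 0.904 to 1.11). The sign of so small a difference was negative after repeated quantile normalization (-0.06) and after centring of the arrays (-0.03).

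Ebf1 and Foxo1 lay lower on every Blnk array, but neither passed. Ebf1, the pioneer factor of the lineage, had intensities of 2090, 2035 and 2190 with pMIG and 1709, 1894 and 1705 with Blnk. The highest Blnk value was below the lowest pMIG value. The log2 difference was -0.25 (SE 0.0743, 95% interval -0.42 to -0.08; adjusted p = 0.142), a fold of 0.840. With a variance prior that follows intensity, the same difference had adjusted p = 0.0211. Foxo1, which drives recombinase and quiescence genes when PI3K signalling is low, had 555, 513 and 543 with pMIG and 432, 442 and 486 with Blnk. These groups did not overlap either. The log2 difference was -0.25 (SE 0.0756, 95% interval -0.42 to -0.07; adjusted p = 0.160), and the smallest adjusted p in any setting tried was 0.0575.

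The Ikaros family rose in 1 of its 2 listed members. Ikzf3 (Aiolos), which is induced as pre-B cell receptor signalling leads to small pre-B cells, had intensities of 1507, 1612 and 1638 on the pMIG arrays and 1927, 2250 and 2057 on the Blnk arrays. All Blnk values were above all pMIG values, and Blnk array 2 was the highest. The rise was 1.31-fold (95% interval 1.15 to 1.49; log2 0.39, SE 0.0813, adjusted p = 0.0447). The call was lost with any array left out (adjusted p from 0.0656 without Blnk 1 to 0.146 without Blnk 3), after repeated quantile normalization (0.0978) and after centring of the arrays (0.0669), while the log2 difference stayed between 0.33 and 0.44. Ikzf1 (Ikaros), whose loss is frequent in this leukemia, had 2449, 2620 and 2469 with pMIG and 2669, 2937 and 2638 with Blnk. The lowest Blnk value was just above the highest pMIG value. The log2 difference was 0.13 (95% interval -0.04 to 0.30; adjusted p = 0.489). Within each array, the log2 ratio of Ikzf3 to Ikzf1 was 0.26 higher with Blnk, and the groups did not overlap.

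Of the octamer factor and its coactivator, the factor passed and the coactivator did not. Pou2f2 (OCT2) had intensities of 183, 187 and 182 with pMIG and 246, 268 and 255 with Blnk. The pMIG values lay within a few units of each other, and every Blnk value was well above them. The rise was 1.39-fold (95% interval 1.25 to 1.55; log2 0.48, SE 0.0668, adjusted p = 0.00850). Without pMIG 3 the adjusted p was 0.0582 at a log2 difference of 0.47. Pou2af1 (OBF1), the coactivator that germinal centres depend on, had 4038, 3988 and 4008 with pMIG and 4137, 4530 and 4378 with Blnk. Its groups did not overlap, but Blnk array 1 came close to the pMIG arrays. The log2 difference was 0.12 (95% interval -0.04 to 0.27; adjusted p = 0.493). The log2 ratio of Pou2f2 to Pou2af1 was 0.36 higher with Blnk, with an SD over arrays of 0.0276 (pMIG, n = 3) and 0.0156 (Blnk, n = 3).

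Both HMG-box factors of early progenitors were lower, and Lef1 passed. Lef1, a WNT effector that supports the growth of pro-B cells, had intensities of 1821, 1751 and 1732 with pMIG and 1317, 1283 and 1202 with Blnk. The groups are separated by a gap of 0.40 on the log2 scale. Lef1 fell to 0.716 of the pMIG level (95% interval 0.641 to 0.801; log2 -0.48, SE 0.0691, adjusted p = 0.00947). Without pMIG 3 the adjusted p was 0.0540 at a log2 difference of -0.50. Sox4, needed for the survival of pro-B cells, had 1257, 1197 and 1234 with pMIG and 899, 983 and 1100 with Blnk. All Blnk values were below the pMIG values and more widely spread, with an SD of 101 against 30.3 (n = 3 each). The log2 difference was -0.31 (SE 0.0873, 95% interval -0.51 to -0.11; adjusted p = 0.124), a fold of 0.806. The adjusted p was 0.0435 with dim genes left out and 0.0262 with a variance prior that follows intensity. Within arrays the log2 ratio of Lef1 to Sox4 was 0.55, 0.38 and 0.13 on the Blnk arrays and 0.49 to 0.55 on the pMIG arrays, so these groups overlap.

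**Figure D2:**
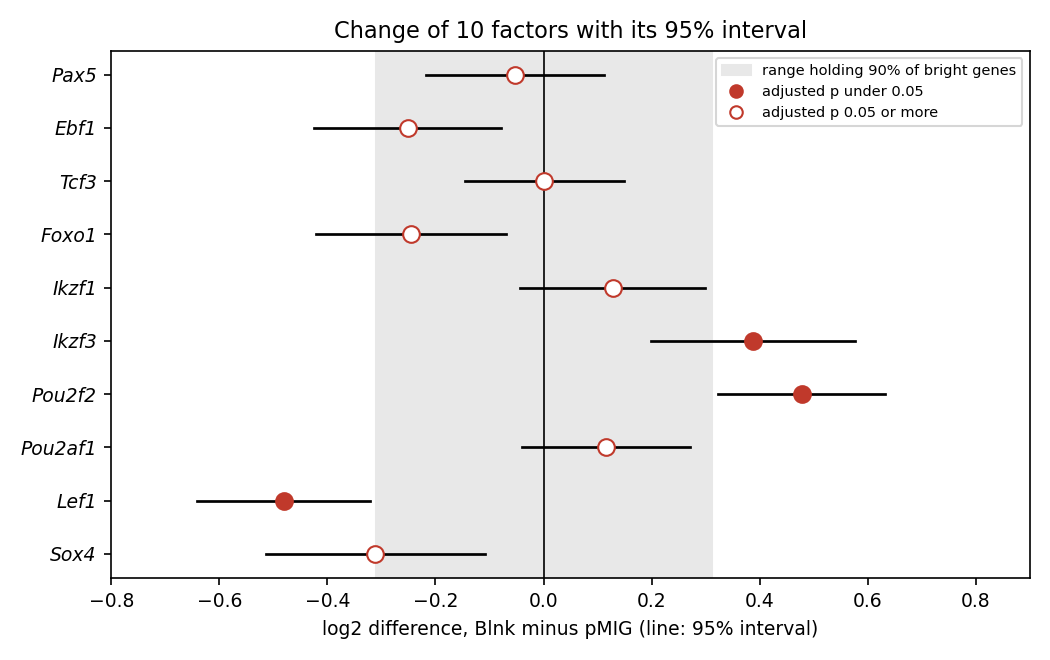
Log2 difference, Blnk minus pMIG, of each factor (horizontal axis; points, 3 arrays a group) with its 95% interval from limma (lines); filled points have an adjusted p under 0.05, and the grey band is the range that holds 90% of the differences of 8531 bright genes. Pou2f2, Ikzf3 and Lef1 lie outside the band, Sox4 lies at its edge, and the intervals of Ebf1, Foxo1 and Sox4 lie below 0 although these genes did not pass over all genes.

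Pairs of related factors, 4 in all, were compared within arrays by an exact two-sided permutation test, which cannot give less than p = 0.1 with 3 arrays against 3. The pairs Ikzf3 and Ikzf1, Pou2f2 and Pou2af1, and Pax5 and Ebf1 (log2 ratio 0.20 higher with Blnk) each reached exact p = 0.1 (0.133 adjusted over the 4 pairs). Lef1 and Sox4 gave -0.17 and exact p = 0.4. The arrays of a group did not order all factors alike. Blnk array 2 had the highest value of its group for 6 of the 10 factors (Pax5, Ebf1, Ikzf1, Ikzf3, Pou2f2 and Pou2af1), while of 8531 bright genes 25.0% were highest on that array. Foxo1, Tcf3 and Sox4 were highest on Blnk array 3.

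By Pearson r over the 6 arrays, the bright genes most like Pou2f2 were Mrps7 (0.999) and Myo1c (0.997). Those most like Ikzf3 were Card6 (0.997) and Apobec3 (0.995), and those most like Lef1 were Tnfrsf21 (0.998) and Brd3 (0.997). Such values are common with 6 arrays in 2 groups: of the other 8530 bright genes, 407 had r above 0.95 with Pou2f2, 222 with Ikzf3 and 186 with Lef1.

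Among relatives and partners of the factors 1 gene passed, and among other regulators of the B lineage 6 did. Of 22 measured relatives and partners (other PAX, EBF, E protein, ID, FOXO, Ikaros, OCT, TCF and SOX genes), 0 rose and 1 fell (limma; 3 higher and 1 lower at unadjusted p below 0.05), with a median of -0.02. Pou2f1 and Tcf7, relatives of Pou2f2 and Lef1, were not measured, which left Pou2f3 as the OCT gene of this list. Several of the 22 were below the array medians with pMIG, among them Sox11 (30.7), Ikzf2 (34.7), Ebf2 (38.0) and Pou2f3 (45.0). Tcf7l2, like Lef1 a nuclear partner of beta-catenin, went down from 259 ± 10.7 to 181 ± 12.9 (SD, n = 3), a log2 change of -0.52 (adjusted p = 0.0114). With 1 array left out it passed without Blnk 1 or Blnk 3 and not otherwise (0.0529 to 0.0603). Of 26 other factors of the B lineage, 5 rose and 1 fell, with a median of 0.06. Erg, an ETS factor of early progenitors, fell by 1.92 on the log2 scale, while Spib, a B-cell relative of PU.1, rose by 1.12, the quiescence factor Klf2 by 0.96 and Irf4, which acts with SPIB and PU.1 at light-chain enhancers, by 0.40. Xbp1 and Zfp318, chosen after their values were seen, made up the rest of those that rose. Without pMIG 1, pMIG 3 or any 1 Blnk array, 3 of the 26 passed. Irf4 (0.0538 to 0.0838) and Xbp1 (0.0744 to 0.130) passed with pMIG 2 left out and with no other array left out. Zfp318 lost its call with each array left out (0.0891 to 0.152) and with both other scalings (0.0768 and 0.0887).

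Known targets of PAX5 went both ways. Of 19 measured genes that PAX5 activates, 7 rose and 2 fell, with a median of 0.26. The risen genes include Blnk, the transduced gene, and without it 6 of 18 rose with a median of 0.24. Spib rose by 1.12 and Cd55, a complement regulator, from 70.0 ± 13.0 to 172 ± 11.0 (SD, n = 3; log2 1.31). Cplx2, a complexin, fell by 0.69 and Prkd2, a protein kinase named after its value was seen, by 0.48. Among the other genes that rose were Cd72 (0.63) and Ciita (0.51), also named after their values were seen. Of 16 measured genes that PAX5 represses, 4 rose and 0 fell (limma; 6 higher and 2 lower at unadjusted p below 0.05), with a median of 0.05. After repeated quantile normalization 1 fell, and after centring of the arrays 2 fell. Several of these genes were below the array medians with pMIG, among them Emb (7.67), Ccr2 (16.3), Prdm1 (28.3) and Csf1r (34.7). A fall would be hard to see in such dim genes. Jchain, which joins IgM and IgA units, rose from 38.3 ± 8.02 to 435 ± 103 (SD, n = 3; log2 3.50). The chemokine Ccl3 rose by 2.70. Xbp1, a secretory factor, rose by 0.41 and Cd33, a myeloid receptor, by 0.48. Without pMIG 3, Blnk 1 or Blnk 2, 2 repressed targets passed, and Cd33 was lost with each array left out (0.0506 to 0.125). Without pMIG 3, Blnk 2 or Blnk 3, 5 activated ones passed, and Prkd2 passed without pMIG 1 and not with any other array dropped (0.0583 to 0.0837).

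Targets of EBF1 and E2A, and of FOXO1, rose in part. Of 16 targets of EBF1 and E2A, 4 rose and 1 fell, with a median of 0.14. Fcrla, an Fc receptor-like protein inside B cells, rose from 618 ± 21.2 to 1801 ± 130 (SD, n = 3; log2 1.54), the adhesion protein Ceacam1 by 0.91 and the kinase Blk by 0.88. Cd79a, a receptor signalling chain named after its value was seen, rose by 0.31, and lost its call whichever array was dropped (0.0678 without Blnk 1 to 0.152 without pMIG 3) or with the other 2 scalings (0.0599 and 0.102). Vpreb1, a surrogate light chain, fell by 0.68. Without pMIG 2 or pMIG 3, 3 of these targets passed, and Vpreb1 was not among them (0.0502 and 0.0688). Of 19 targets of FOXO1, 4 rose and 1 fell, with a median of 0.08. Klf2 rose by 0.96, the antiproliferative gene Btg1 by 0.67, the stress protein Sesn3 by 0.50 and the homing receptor Ccr7 by 0.70. Bnip3, a mitophagy receptor named after its value was seen, fell by 0.87. Without pMIG 1, pMIG 3 or Blnk 2, 3 of these passed. Ccr7 was lost without those arrays (0.060, 0.0768 and 0.0714), and Bnip3 passed without Blnk 3 and with no other array left out (0.0672 to 0.115).

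Of 13 measured genes that Ikaros and Aiolos repress, 3 fell, 1 rose and 9 did not pass, with a median of -0.22. The difference was negative for 11 of the 13, against 10051 of all 19938 genes. These 11 include 3 dim genes, Cd9 (18.7 with pMIG and 15.7 with Blnk), Kit (42.7 and 41.0) and Dntt, of which Kit and Dntt differed by -0.05 and -0.03 on the log2 scale. Vpreb1 fell from 1746 ± 122 to 1090 ± 116 (SD, n = 3) and Myc from 4386 ± 76.9 to 3240 ± 192 (log2 -0.44, adjusted p = 0.0161). Hes1, a Notch target, fell by 0.55, and the cyclin Ccnd2 rose by 0.31. Ccnd2 did not pass with either other scaling (0.0502 and 0.0904), and 5 fell after repeated quantile normalization. Leaving out 1 array left 0 (without pMIG 2 or pMIG 3), 1 (without pMIG 1 or Blnk 2) or 2 (without Blnk 1 or Blnk 3) of the 13 past the threshold. Vpreb1 did not pass without pMIG 2 or pMIG 3. With 1 array left out, Myc passed without Blnk 1 and not otherwise (0.0591 to 0.0914), and Hes1 passed without Blnk 3 and not otherwise (0.0850 to 0.161). Ccnd2 lost its call whichever array was dropped (0.0907 to 0.144).

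Targets of OCT2 and OBF1 included 3 that rose of 9 measured and 0 that fell (limma; 6 higher and 1 lower at unadjusted p below 0.05), with a median of 0.26. Spib rose by 1.12, the interleukin-5 receptor chain Il5ra from 59.7 ± 2.89 to 105 ± 5.69 (SD, n = 3; log2 0.81) and Cd36, a fatty acid receptor, from 1122 ± 27.2 to 1481 ± 32.6 (log2 0.40, adjusted p = 0.0149). Spib and Il5ra passed with any 1 array left out, while Cd36 lost its call with each (0.0525 without Blnk 1 to 0.0716 without Blnk 3). In the WNT pathway of Lef1, 0 of 16 measured genes rose and 1 fell (limma; 2 higher and 3 lower at unadjusted p below 0.05), with a median of 0.02 (-0.02 with both other scalings). Nkd2, an inhibitor of WNT signalling, fell by 0.82 on the log2 scale. Of 8 genes tied to SOX4 and TGF-beta, 0 rose and 1 fell (limma; 1 higher and 2 lower at unadjusted p below 0.05), with a median of -0.12. Tubb3, a tubulin that SOX4 activates in neurons, fell from 528 ± 23.2 to 222 ± 18.2 (log2 -1.25). Of the other list medians given, 4 also moved by over 1.5 times with repeated quantile normalization or centring. They went to -0.059 and -0.051 for relatives and partners and to 0.0081 and 0.025 for other factors of the B lineage. They went to 0.036 and 0.013 for genes that PAX5 represses and to 0.024 and 0.040 for FOXO1 targets. Medians of the T and NK, myeloid, erythroid and stromal marker lists, not given above, moved by over 1.5 times as well. Lists share genes, and the share of each list called stands beside 3.61% of all genes and 6.85% of bright genes. The lists were chosen with earlier results of these data known, so this comparison is no independent test.

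**Figure D3:**
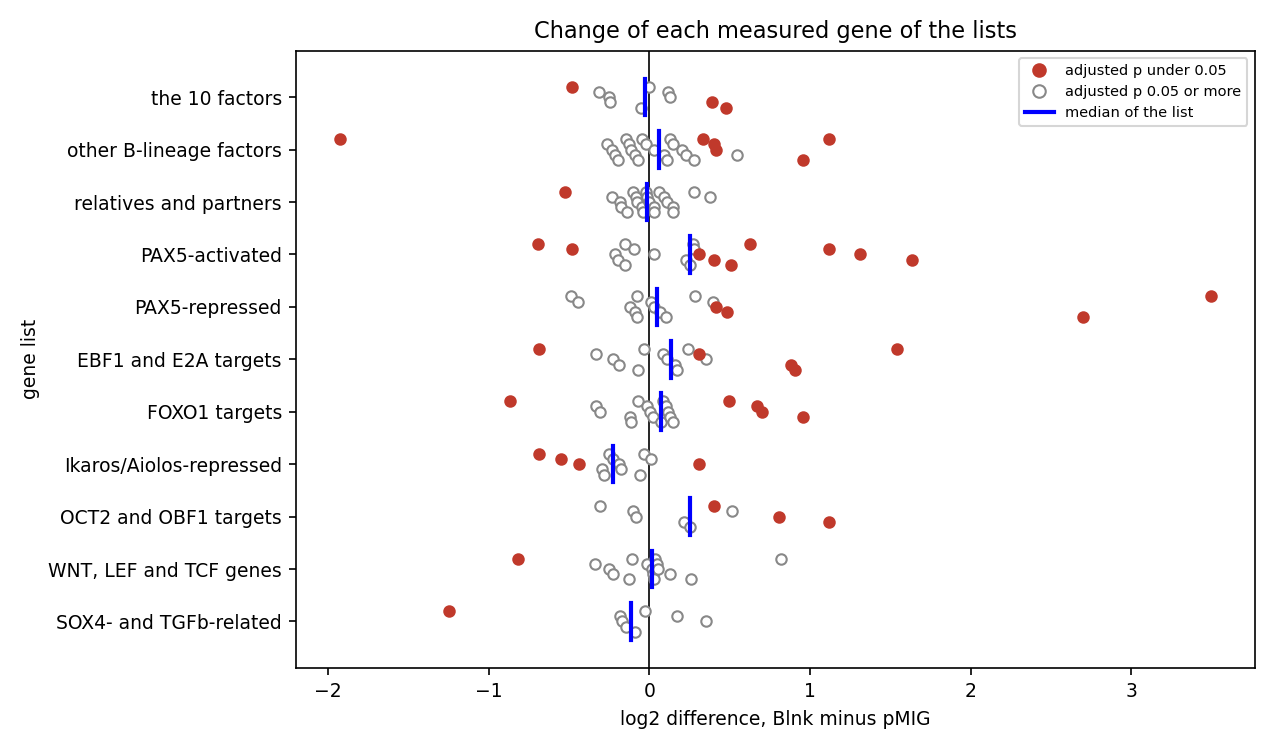
Log2 difference, Blnk minus pMIG (horizontal axis), of each measured gene of the 10 factors and of 10 lists around them (rows; points are genes, offset for display); red points have an adjusted p under 0.05 and the blue bar is the median of the list. The 10 factors lie between -0.48 and 0.48, and Erg at -1.92 and Jchain at 3.50 mark the ends of the lists.

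**Figure D4:**
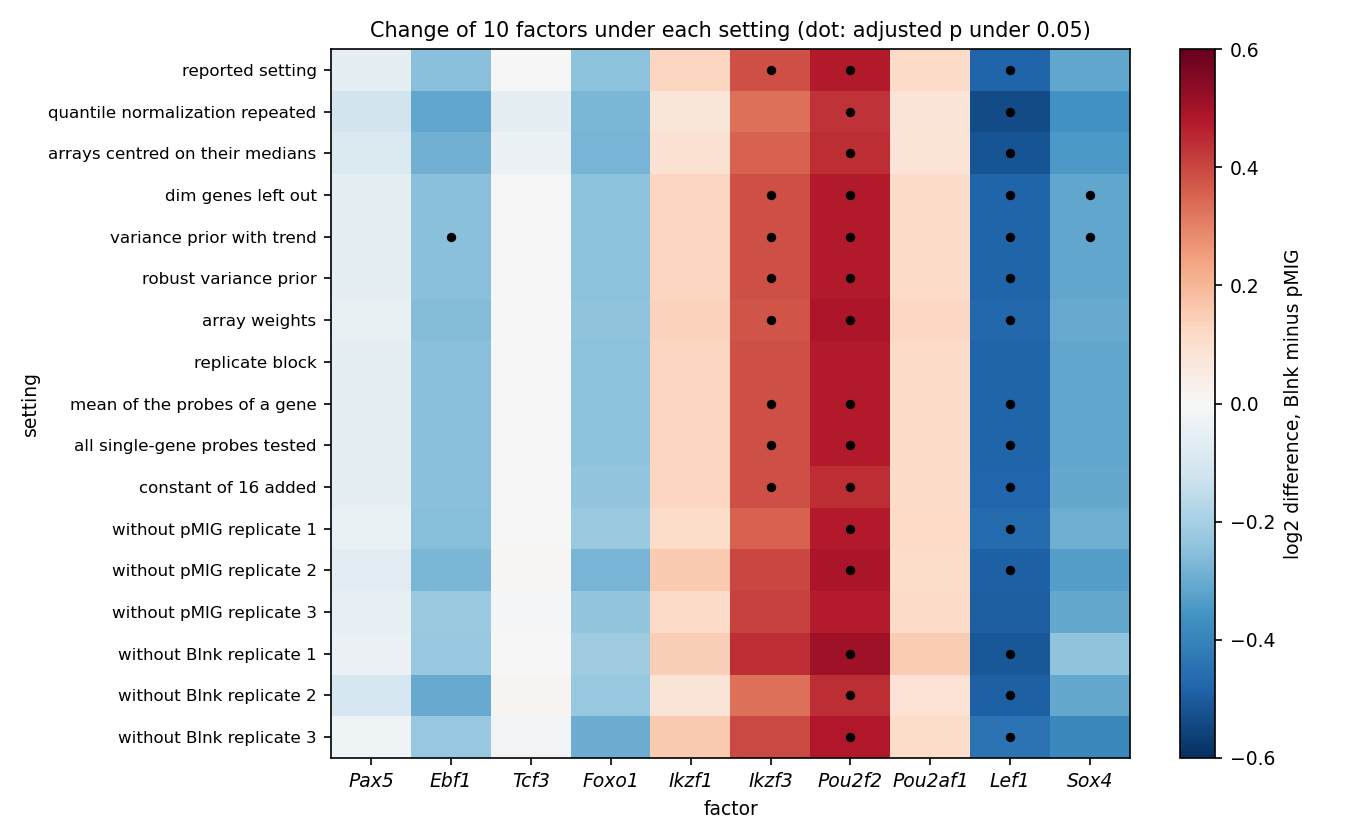
Log2 difference, Blnk minus pMIG (colour), of each factor (columns) in the reported setting and under 16 others (rows), with a dot where the adjusted p was under 0.05. Pou2f2 and Lef1 passed in 14 of the 16 other settings, Ikzf3 in 7, Sox4 in 2 and Ebf1 in 1. Each factor had 1 single-gene probe, so the 2 other ways of treating probes left its values unchanged. Leaving out dim genes did so too, and in these settings only the other genes of the fit differed.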

How the data were processed

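Expression was measured on 6 Affymetrix arrays, 3 per group, with groups and replicate numbers taken from the sample titles. The authors deposited linear intensities as whole numbers. Per the submitters' processing notes RMA was used (version not given in the sources used here). That its log2 output was turned back to a linear scale and rounded is inferred from the values. No depth applies, and the number of arrays limits the precision. Log2 was taken with nothing added and no further normalization. Probes were named from the platform annotation: of 35421, 21789 had 1 gene symbol, 1621 several and 12011 were not listed. The brightest single-gene probe stood for each of 19938 genes.

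The test was limma's (version 3.58.1, R 4.3.3; lmFit, then eBayes), with no term besides the group, after the code had been tested on simulated data. P-values are two-sided and Benjamini-Hochberg adjusted over all genes, with a threshold of 0.05. Of 230 entries in 15 further lists, written from general knowledge, 216 were measured. Named were all 10 factors, Blnk, up to 4 called genes per list, taken by adjusted p, and the 2 bright genes most like each called factor. Called genes of a list were thus picked by their values. Those said to be named after their values were seen lie outside the 4 of their list. Dim genes of some lists were named for their level, and Pou2f1 and Tcf7 because they were not measured. The factors and lists were chosen with earlier results of these data known. Arrays with the same replicate number did not deviate together from their group means (r = -0.19, 0.06 and -0.12 across genes), so the numbers were not taken as pairs. The alternatives were 2 other scalings, a filter on dim genes (below the 40th percentile), 2 other variance priors, array weights, the replicate block, 2 other ways of treating probes, a constant of 16 added before log2, and each array left out.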

Additional observations from a re-analysis of the deposited data

How the results depend on the processing

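The 10 factors kept their direction in every setting except Tcf3, which was at -0.0575 after repeated quantile normalization, -0.0338 after centring of the arrays and between -0.0183 and 0.0187 with 1 array left out. Of the 10, 5 passed with a variance prior that follows intensity (2 higher and 3 lower), and between 0 (without pMIG 3) and 2 with 1 array left out. Without pMIG 3, limma called 6 at an unadjusted p under 0.05. Fewer arrays weaken the test by construction. The replicate block left 0 factors past the threshold (6 at unadjusted p below 0.05), with 0.0617 for Pou2f2, 0.0613 for Lef1 and 0.117 for Ikzf3, and 289 genes in all. The numbers are not shown to pair the samples: 0 of 6 arrays correlated best with the array of their own number.

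Over all genes, 720 passed (500 higher and 220 lower). The count was 1228 with dim genes left out, 1313 with the variance prior that follows intensity, 1100 with 16 added, and 267 to 437 with 1 array left out. Repeated quantile normalization gave 411 higher and 327 lower, and centring 417 and 291. The cause of the differences between variance priors was not tested.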
